A study of Mus musculus with 12 samples.

Results

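Fth1, Ftl1, Tfrc, Ireb2 and Aco1, genes of cellular iron handling whose mRNAs or proteins belong to the best known case of translational control by iron, were followed in total and polysomal RNA of C2C12 cells, a mouse myoblast line. They were chosen by name from the authors' tables, and all 5 of 5 were present in both, among 13331 genes listed for wild-type and 13027 for Ddx27-/- cells. Ddx27 encodes a nucleolar RNA helicase, and polysomes are mRNAs that carry several ribosomes. The groups were wild-type total RNA (3 libraries), wild-type polysomal RNA (3), Ddx27-/- total RNA (2) and Ddx27-/- polysomal RNA (3), all from C2C12 cultures for which the labels give no treatment, age or clone, so a difference between genotypes may be one between 2 cultures. A further Ddx27-/- total sample was not analysed here. The labels do not say whether replicates were grown as separate cultures, and the tests then measure the spread between these samples, which may be technical.

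Cells store iron in ferritin, a shell of heavy and light chains that Fth1 and Ftl1 encode, and take it up through the transferrin receptor, encoded by Tfrc. Aco1 encodes iron regulatory protein 1, which is also a cytosolic aconitase, and Ireb2 encodes iron regulatory protein 2. When iron is scarce, both proteins bind hairpins called iron-responsive elements: near the start of ferritin mRNAs this blocks translation, and behind the coding part of Tfrc mRNA it protects the message from decay. In proliferating myoblasts iron also serves mitochondrial and haem enzymes.

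The levels below are normalised read counts, meaning the reads of a gene times 1 factor per library that the authors set separately for each genotype. Libraries held 13683674 to 27347878 reads, and the members had between 91 reads (Ireb2 in wild-type polysomal replicate 2) and 194836 reads (Fth1 in knockout total replicate 2), so counting error was small beside the spread between replicates for most values. Ddx27 itself ran from 139 to 215 normalised read counts over the 6 wild-type libraries and from 31.3 to 52.6 over the 5 knockout libraries. Of the myoblast markers, 8 of 8 were listed for the wild type and 6 of 8 for the knockout, where Pax7 and Msc were absent. Of the erythroid and leukocyte markers, 1 of 8 and 1 of 6 were listed for the wild type and 2 of 8 and 2 of 6 for the knockout, with summed levels of at most 4.94. Hepatocyte markers were listed for 1 of 4 in the wild type, at up to 1.21, and for 0 of 4 in the knockout. The nuclear RNAs Malat1, Neat1 and Xist summed to 592 to 696 in wild-type total and 209 to 433 in wild-type polysomal RNA. In the knockout they summed to 602 to 750 in total and 151 to 1010 in polysomal RNA. The highest knockout polysomal sum was thus above both knockout total libraries, and its bearing on the polysomal values was not tested. Polysomal libraries differed in rRNA-like reads, from 0.385% to 32.7%, and wild-type polysomal replicate 2 and knockout polysomal replicates 1 and 2 lay above 10%. They differed as well in a trend on gene length, given per doubling of length against the genotype's mean total RNA on the log2 scale. Its slope was −0.23, −0.53 and −0.14 in wild-type polysomal replicates 1 to 3, so long genes read low there, most of all in replicate 2, and −0.16, 0.18 and 0.11 in the knockout ones. Against each other, the knockout total replicates 1 and 2 had slopes of 0.23 and −0.23. This bears on the members because in the authors' tables Fth1 is 862 bases long and Ftl1 1632, against 4473 for Aco1, 5786 for Ireb2 and 6219 for Tfrc. On GRCm38.p6, RefSeq places Fth1 (ENSMUSG00000024661) at chr19:9980600-9985111, Ftl1 (ENSMUSG00000050708) at chr7:45457944-45459886 and Tfrc (ENSMUSG00000022797) at chr16:32608896-32632794. It places Ireb2 (ENSMUSG00000032293) at chr9:54862658-54912534 and Aco1 (ENSMUSG00000028405) at chr4:40143265-40199009.

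Per kilobase of gene length, Fth1 stood far above the other members in every group. In wild-type total RNA, normalised read counts per kilobase were 3151 ± 428 for Fth1 (SD, n = 3 here and for the next 4 values), 181 ± 33.8 for Ftl1, 24.8 ± 1.29 for Aco1, 13.2 ± 2.69 for Tfrc and 8.80 ± 1.34 for Ireb2. Fth1 alone took 0.178% to 0.794% of all reads of a library. The means of Aco1, Tfrc and Ireb2 came in this order in all 4 groups, but not always beyond their spread. In knockout total RNA Aco1, at 15.6 ± 3.08 (n = 2), and Tfrc, at 15.3 ± 0.622, differed by less than their spread. In knockout polysomal RNA Aco1, Tfrc and Ireb2, at 9.69 ± 3.03, 8.43 ± 3.55 and 7.77 ± 3.01 (n = 3 each), all lay within their spread. The level of Ftl1 per kilobase depends on the length the tables give it, and Fth1 has processed pseudogenes that could share its reads. Fth-ps2, the 1 listed copy, held at most 28 reads in any library.

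**Figure D1:**
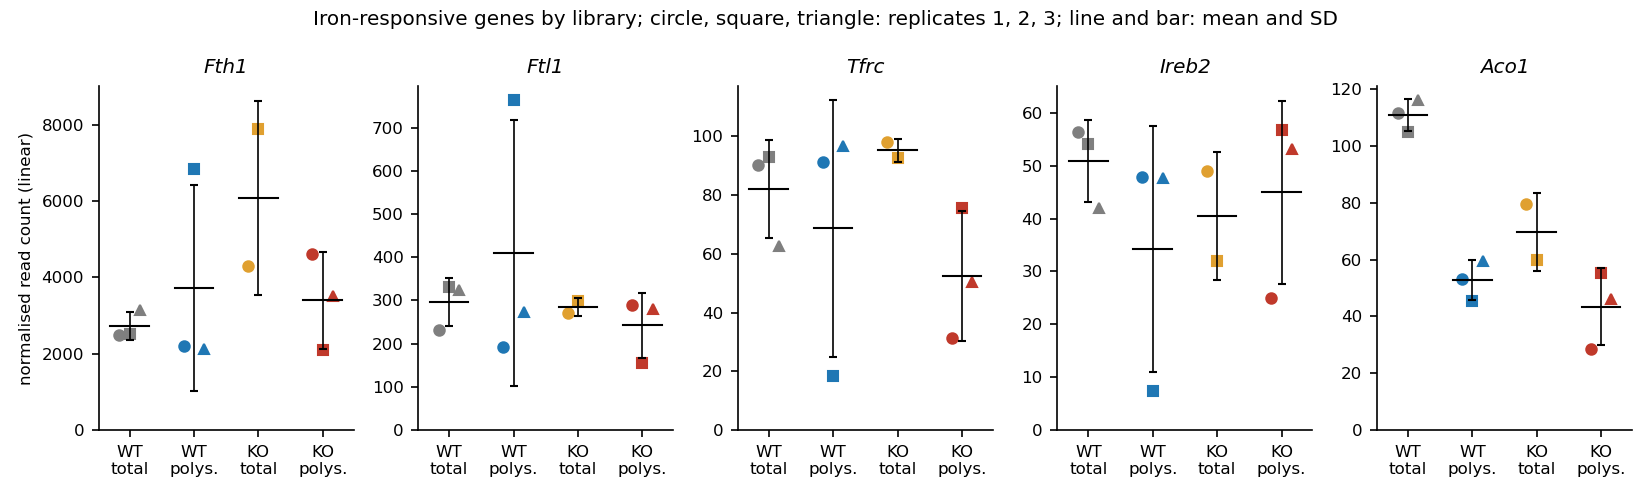
Normalised read counts (linear axis from 0) of Fth1, Ftl1, Tfrc, Ireb2 and Aco1 in each library, by genotype (WT, wild type; KO, Ddx27-/-) and fraction (polys., polysomal), with mean and SD; symbols mark replicates. Wild-type polysomal replicate 2 is the highest of its group for both ferritin genes, at 6826 and 763.6, and the lowest for Tfrc and Ireb2, at 18.3 and 7.33.

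The 2 ferritin chain genes, whose levels parted in knockout total RNA, are shown with the 90 bases of genome before a RefSeq start of each (GRCm38.p6; for Fth1 the downstream of its listed starts), so that their promoters can be compared. Capitals mark each CCAAT, the site of the factor NF-Y, here read on the opposite strand as ATTGG. Fth1 lies on the plus strand at chr19:9982556-9982645 and Ftl1 on the minus strand at chr7:45459887-45459976.
Fth1: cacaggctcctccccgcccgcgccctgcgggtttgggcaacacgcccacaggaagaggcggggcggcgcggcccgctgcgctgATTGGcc
Ftl1: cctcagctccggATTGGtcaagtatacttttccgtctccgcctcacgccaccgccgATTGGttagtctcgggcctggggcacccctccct
Ftl1 had 2 matches, from −78 to −74 and from −34 to −30 counted from the base after this stretch as 0, and Fth1 had 1, from −7 to −3, with none in the window of its upstream start. Searched on both strands over 250 bases, 33.8% of 32851 promoter windows hold CCAAT, so these matches are common and are given as a description. Tfrc had 1 match at −124 to −120 of its upstream start, and no CCAAT was found in the windows of Ireb2 and Aco1. The antioxidant motif TGACNNNGC, held by 10.2% of windows, was found in none of the members' windows, which says only that these letters are not in this stretch.

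The first question was which of these mRNAs stand apart in polysomes of wild-type cells. Polysomal RNA held less Aco1 mRNA than total RNA did, and the other 4 members did not pass the test. By limma, 1 of 5 members passed an adjusted p of 0.05 (Benjamini-Hochberg over 12380 genes), beside 22.7% of all genes tested. A call was thus common in this comparison. Ranked from the lowest log2 fold change, Aco1 stood at 9.92% of these genes. Aco1 had 111.6, 104.9 and 116.3 normalised read counts in total replicates 1 to 3 and 53.0, 45.5 and 59.6 in polysomal replicates 1 to 3. Every polysomal library lay below every total library, at about the same level in all 3. How many other genes part the groups in this way was not counted. Aco1 fell by 1.07 ± 0.17 on the log2 scale (SE, limma adjusted p = 0.00722, 3 libraries against 3, lower in 3 of 3), a fold of 0.478. Its value was −0.97 without the rRNA-rich replicate 2 and −0.94 with the length trend removed. The call was lost without total replicate 1, 2 or 3 (limma adjusted p = 0.0574, 0.0507 and 0.0583), while the value stayed between −1.16 and −0.97 over all libraries left out. Calls over all genes fell as well in these 3 fits. They were 114 higher and 420 lower, 144 and 437, and 83 and 378, against 1101 and 1705 in the full fit. Muscle markers were lower in these polysomal libraries too: the summed level of 8 myoblast markers was 3020 to 4230 in total and 1060 to 1140 in polysomal RNA, and their part in the Aco1 value was not tested. In the authors' deposited table Aco1 has a log2 fold change of −1.07 (FDR 0.000902).

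Ferritin mRNAs did not pass the test between wild-type polysomal and total RNA, and 1 polysomal library stood far above the rest. Fth1 had 2483, 2524 and 3141 normalised read counts in total replicates 1 to 3 and 2198, 6826 and 2110 in polysomal replicates 1 to 3. Polysomal replicates 1 and 3 lay below all total libraries and replicate 2 above them. Ftl1 had 232.3, 330.3 and 325.0 in total and 192.6, 763.6 and 274.3 in polysomal RNA, with the same library far above the rest. The estimates were 0.23 ± 0.45 for Fth1 (limma adjusted p = 0.724) and 0.23 ± 0.47 for Ftl1 (adjusted p = 0.737). Without polysomal replicate 2 they turned to −0.33 ± 0.16 (adjusted p = 0.118) and −0.34 ± 0.19 (adjusted p = 0.158), so 1 library set their sign.

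The long mRNAs of Tfrc and Ireb2 mirrored the ferritin genes in that library. Tfrc had 90.4, 92.9 and 62.8 normalised read counts in total RNA and 91.3, 18.3 and 96.6 in polysomal replicates 1 to 3. Ireb2 had 56.5, 54.1 and 42.1 in total RNA and 47.9, 7.33 and 47.6 in polysomal RNA. In both genes only polysomal replicate 2 lay outside the range of the other 5 libraries by a wide margin. Tfrc stood at −0.55 ± 0.60 (limma adjusted p = 0.512) and Ireb2 at −0.93 ± 0.65 (adjusted p = 0.315), with 95% intervals of −1.94 to 0.84 and −2.44 to 0.58. Without replicate 2 Tfrc stood at 0.21 ± 0.17 (adjusted p = 0.312). Replicate 2 was also the library with the steepest length trend and the most rRNA-like reads of its group, 14.6%. With the length trend removed Tfrc stood at −0.28 and Ireb2 at −0.69, neither called by limma. What set this library apart was not tested.

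**Figure D2:**
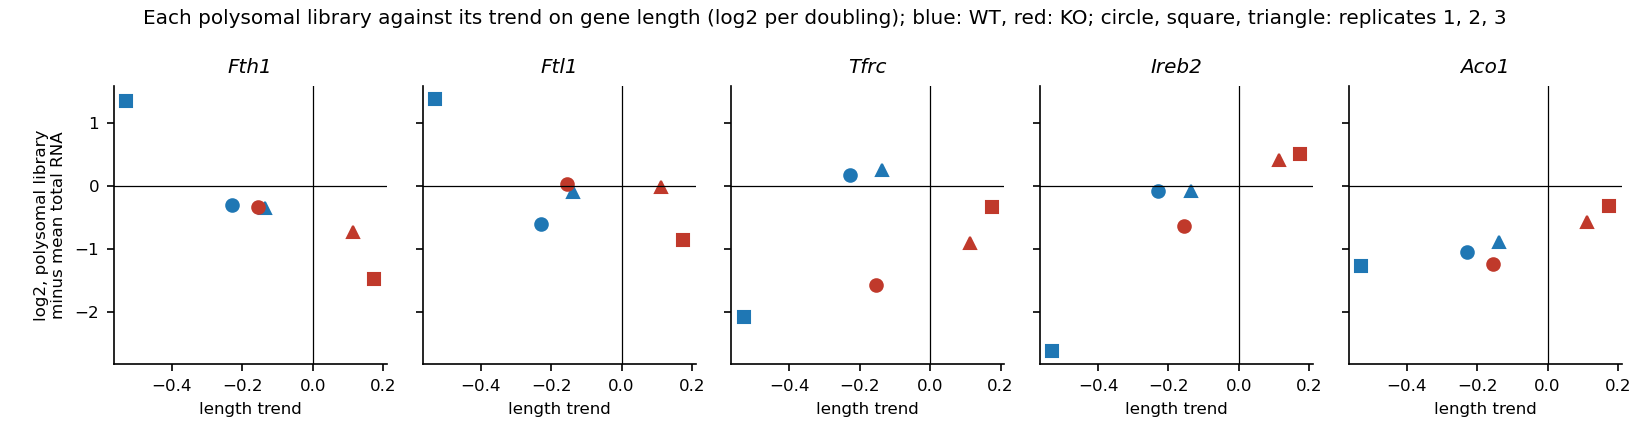
Log2 difference of each polysomal library from the mean total RNA of its genotype (vertical axis) against the library's trend on gene length (horizontal axis, log2 per doubling of length), for the 5 members. The wild-type library at −0.53 carries the highest value of the short Fth1 and Ftl1, 1.34 and 1.38, and the lowest of the long Tfrc and Ireb2, −2.08 and −2.63.

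In Ddx27-/- cells no member passed the test between polysomal and total RNA. By limma 0 of 5 were called, beside 2.76% of 12070 genes, 1 of 5 had an unadjusted p under 0.05, and edgeR and DESeq2 called 0 as well. Tfrc, the transferrin receptor mRNA, came nearest. It had 97.9 and 92.5 normalised read counts in total replicates 1 and 2 and 31.4, 75.5 and 50.5 in polysomal replicates 1 to 3. All polysomal libraries lay below both total libraries, spread over more than a doubling. The estimate was −0.93 ± 0.35 (limma adjusted p = 0.159, lower in 3 of 3). With the length trend removed it was −0.97 ± 0.26 and passed (limma adjusted p = 0.0402), beside 12.1% of all genes, more than the 2.76% of the full fit.

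Aco1 was likewise lower in each knockout polysomal library, without passing. It had 79.4 and 59.9 normalised read counts in total RNA and 28.6, 55.3 and 46.2 in polysomal RNA. The estimate was −0.71 ± 0.31 (limma adjusted p = 0.22), and in the authors' deposited table −0.69 (FDR 0.193). Fth1 had 4287 and 7885 in total RNA and 4611, 2086 and 3505 in polysomal RNA, where replicate 1 overlapped the lower total library. It stood at −0.85 ± 0.45 (adjusted p = 0.303). Ftl1 had 270.2 and 299.0 in total and 290.3, 155.8 and 281.4 in polysomal RNA, at −0.28 ± 0.31 (adjusted p = 0.629). Ireb2 had 49.1 and 31.9 in total and 25.0, 56.7 and 53.2 in polysomal RNA, at 0.09 ± 0.38 (adjusted p = 0.909). For these 3 genes the groups overlapped, and in polysomal replicate 1 the ferritin genes were high and Ireb2 low, the reverse of replicate 2.

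Whether polysomal over total RNA differs between the genotypes was tested on libraries brought to 1 scale by the median of ratios. No member passed by limma, 0 of 5 beside 0.249% of 12460 genes, with 0 at an unadjusted p under 0.05 and 0 by edgeR and DESeq2. The differences, knockout minus wild type, were −1.12 ± 0.70 for Fth1, −0.56 ± 0.67 for Ftl1, −0.42 ± 0.77 for Tfrc, 0.98 ± 0.84 for Ireb2 and 0.32 ± 0.35 for Aco1. Their 95% intervals all include 0, and that of Ireb2 runs from −0.86 to 2.83, so a several-fold difference in that gene was not detectable with these libraries. With the 3 polysomal libraries above 10% rRNA-like reads left out, Tfrc stood at −1.14 ± 0.30. That fit rests on 1 knockout polysomal library, assumed to vary like the other groups.

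**Figure D3:**
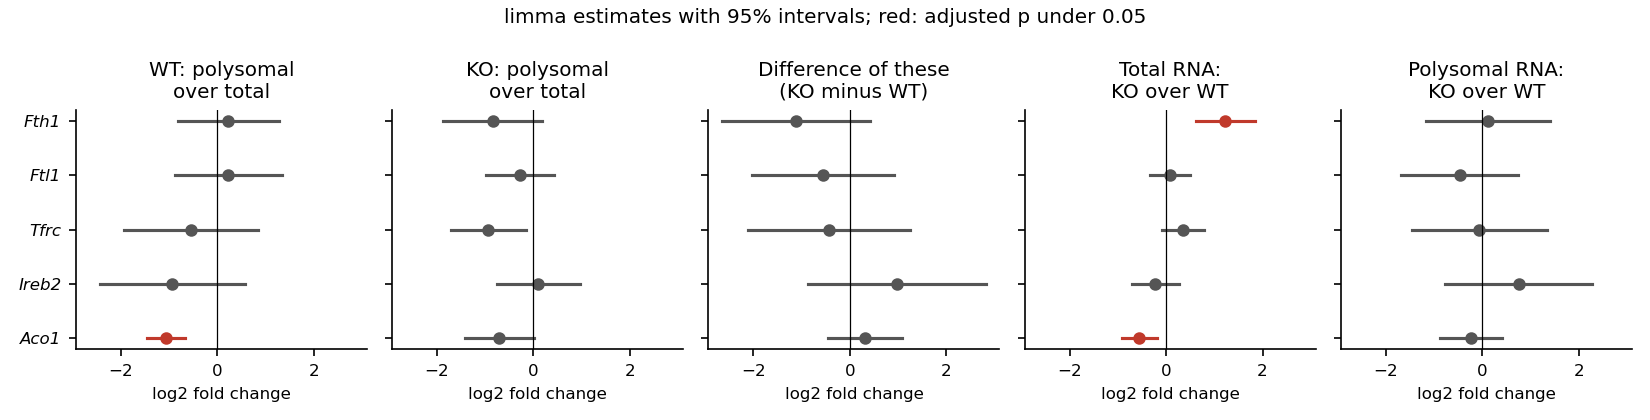
limma log2 fold changes (points) with 95% intervals (lines) for the 5 members in the 5 comparisons; red marks an adjusted p under 0.05. Only Aco1 in the wild type, and Fth1 and Aco1 in total RNA between genotypes, are red.

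Between genotypes, total RNA of Ddx27-/- cells held more Fth1 and less Aco1 mRNA. On the common scale Fth1 stood at 2384, 2425 and 3044 in wild-type total replicates 1 to 3 and at 4496 and 8269 in the knockout ones. Both knockout libraries lay above all wild-type ones, and they differed from each other by more than the wild-type range. Fth1 rose by 1.23 ± 0.27 on the log2 scale (SE, 2 knockout against 3 wild-type libraries, limma adjusted p = 0.0109), a fold of 2.34. Its size rested on single libraries and on length. It was 1.67 without knockout total replicate 1 and 0.79 without replicate 2, where the lone library is assumed to vary like the wild-type ones. With the length trend removed it was 0.73, still called, beside 36% of all genes.

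Aco1 had 107.2, 100.7 and 112.7 in wild-type total RNA on the common scale against 83.3 and 62.8 in the knockout. The groups did not overlap, and Aco1 fell by 0.56 ± 0.16 (limma adjusted p = 0.0281, lower in 2 of 2). The call was lost without wild-type total replicate 1, 2 or 3 (adjusted p = 0.097, 0.0802 and 0.102) while the value hardly moved, at −0.55, −0.60 and −0.52. It was −0.76 without knockout replicate 1 and −0.36 without replicate 2, each with 1 knockout library left. In a fit of all 11 libraries with 1 shared spread, Fth1 (adjusted p = 0.146) and Aco1 (adjusted p = 0.18) did not pass, at the same estimates. With Fth1 and Aco1, 2 of 5 members were called, beside 36.8% of 11993 genes, so a call was common in this comparison.

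The other 3 members did not pass in total RNA. Ftl1, at 0.08 ± 0.18 (limma adjusted p = 0.738), had a 95% interval of −0.34 to 0.50. Ireb2 stood at −0.22 ± 0.21 (adjusted p = 0.428), and at −0.53 without knockout replicate 1, which leaves 1 knockout library. Tfrc stood at 0.36 ± 0.19 (adjusted p = 0.162). It passed with the length trend removed, at 0.58 ± 0.17 (limma adjusted p = 0.03), beside 36% of all genes. Muscle markers moved in the same comparison: the summed level of the myoblast markers, 3020 to 4230 in wild-type total RNA, was 1230 to 1400 in knockout total RNA, and that of the terminal muscle markers, 6 of 6 listed, 293 to 768 and 139 to 155. The fibroblast markers summed to 758 to 815 in wild-type total RNA, with 4 of 5 listed, and to 330 to 489 in knockout total RNA, with 3 of 5 listed. The part of these markers in the iron gene values was not tested, and in bulk RNA fewer cells of a type and less RNA per cell cannot be told apart.

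In polysomal RNA no member passed between the genotypes. By limma 0 of 5 were called, beside 2.57% of 12184 genes, with 0 at an unadjusted p under 0.05 and 0 by edgeR and DESeq2. Fth1 stood at 0.11 ± 0.56 (limma adjusted p = 0.95), Ftl1 at −0.47 ± 0.53, Tfrc at −0.07 ± 0.61, Ireb2 at 0.76 ± 0.66 and Aco1 at −0.24 ± 0.28. The widest interval, that of Ireb2, ran from −0.77 to 2.28. These contrasts share libraries with the ones above, so they are not independent of them.

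Ratios of 2 members within a library do not depend on how libraries are scaled, and for genes of similar length they depend less on the length trend. The 4 ratios computed, from counts per kilobase, were chosen after the values had been seen. How often ratios of other genes part groups of this size was not counted. Tfrc over Ireb2, the receptor mRNA against that of iron regulatory protein 2, did not overlap between the groups of any of the 4 comparisons. It was 1.49, 1.60 and 1.39 in wild-type total replicates 1 to 3 and 1.77, 2.32 and 1.89 in polysomal replicates 1 to 3, so every polysomal library was higher. In the knockout it was 1.86 and 2.70 in total and 1.17, 1.24 and 0.884 in polysomal RNA, so every polysomal library was lower. The mean log2 difference of polysomal from total RNA was 0.41 in the wild type and −1.04 in the knockout. The exact permutation p was 0.1 in each, two-sided, the smallest these group sizes allow (adjusted p = 0.229 over 16 such comparisons).

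The difference between these contrasts was −1.46, and it was the most extreme of 200 arrangements of the genotype labels within each fraction (exact permutation p = 0.005, two-sided, the smallest possible, and adjusted p = 0.02 over 4 ratios). This p treats the genotypes as exchangeable within total and within polysomal RNA. A genotype difference within either fraction can also lower it, so it does not single out the difference between the contrasts. Leaving out any 1 library gave −1.73 to −1.19, and leaving out the 3 rRNA-rich libraries gave −1.64.

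The ferritin chain ratio Fth1 over Ftl1 was higher in the knockout libraries, without passing in either fraction. It was 20.2, 14.5 and 18.3 in wild-type total and 21.6, 16.9 and 14.6 in wild-type polysomal RNA, against 30 and 49.9 in knockout total and 30.1, 25.3 and 23.6 in knockout polysomal RNA. All 5 knockout libraries lay above all 6 wild-type ones. The mean log2 difference was 1.15 in total and 0.59 in polysomal RNA (exact permutation p = 0.1 in each, two-sided, adjusted p = 0.229, the smallest p possible before adjustment). Polysomal over total RNA differed between genotypes by −0.56 (exact permutation p = 0.48, adjusted p = 0.65 over 4 ratios). With Fth1 at 862 bases and Ftl1 at 1632, this ratio may also carry the length trend. The highest ratio, 49.9, came from knockout total replicate 2, whose slope against replicate 1 was −0.23. The ratio was not computed with the length trend removed, so the part of length in it was not tested. Within the wild type the polysomal ratio overlapped the total one, with a mean log2 difference of −0.00 (exact permutation p = 1). Ireb2 over Aco1 was 0.391, 0.399 and 0.280 in wild-type total and 0.698, 0.125 and 0.617 in polysomal RNA, with replicate 2 alone below the total libraries. In the knockout it was 0.478 and 0.412 in total and 0.676, 0.793 and 0.890 in polysomal RNA, without overlap (mean log2 difference 0.82, exact permutation p = 0.1, adjusted p = 0.229). Tfrc over Fth1 overlapped between the groups of all 4 comparisons.

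**Figure D4:**
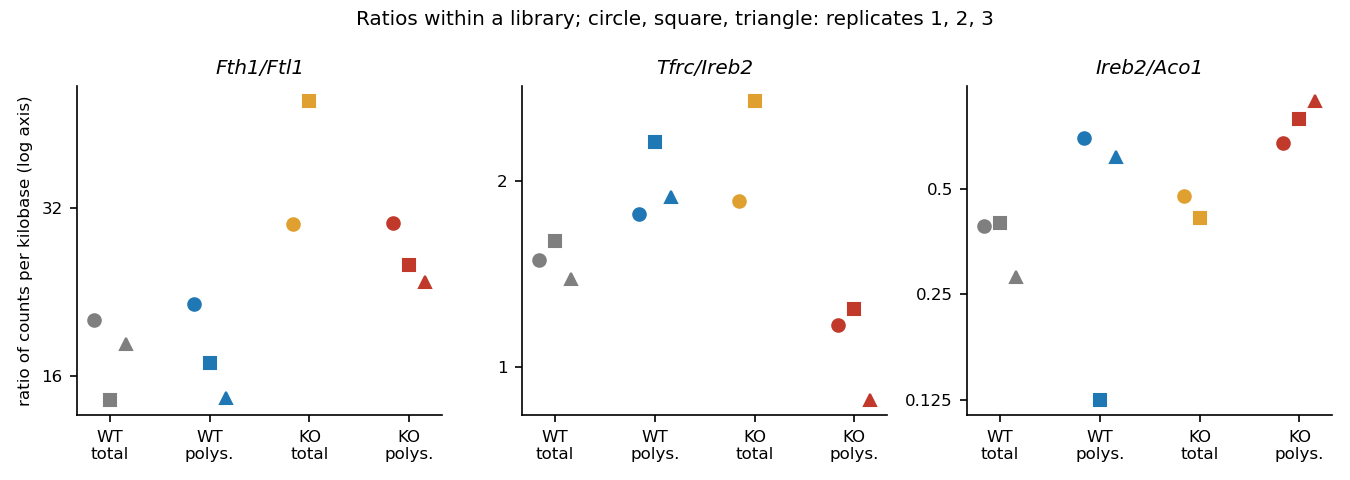
Ratios of normalised read counts per kilobase within each library (log axis) for Fth1/Ftl1, Tfrc/Ireb2 and Ireb2/Aco1, by group; symbols mark replicates. Tfrc/Ireb2 is higher in wild-type polysomal (1.77 to 2.32) than total RNA (1.39 to 1.60) and lower in knockout polysomal (0.884 to 1.24) than total RNA (1.86 to 2.70).

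Over the 11 libraries on the common scale, Fth1 and Ftl1 had a Pearson r of 0.69, Tfrc and Ireb2 0.84, and Ftl1 and Ireb2 −0.86. These are descriptions, since points share library, depth and length trend. Of 9385 genes with a mean of at least 10, the ones most like Fth1 in log2 level were Npdc1, Atp6v0e and Arl2 (r of 0.98 each), and those most like Ftl1 were Gm6517, Gga1 and Crip2 (0.94, 0.94 and 0.93). Xpot, Dld and Far1 were most like Tfrc (0.98, 0.97 and 0.97). Sppl2a, Dnajc3 and Mbtps2 were most like Ireb2 (0.99 each), and Copg1, Myo9b and Mdc1 most like Aco1 (0.99, 0.98 and 0.98).

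Around the members, 86 further genes of iron, haem and antioxidant handling were followed in 7 lists, and 75 were in the tables. In wild-type polysomal over total RNA, 8 were higher and 9 lower of 72 tested, with a median log2 value of 0.06 against −0.02 for all genes. In the knockout it was 1 higher and 5 lower of 73 (median −0.14 against 0.04). In total RNA between genotypes 22 were higher and 5 lower of 72 (median 0.13 against −0.02), and in polysomal RNA 2 were higher and 0 lower (median −0.02 against 0.00). For the genotype difference 1 of 72 was called. The counts below stand beside 22.7% of all genes called in wild-type polysomal over total RNA, 2.76% in the knockout, 36.8% between genotypes in total RNA and 2.57% in polysomal RNA. Of all genes, 2141 were higher and 2272 lower in total RNA between genotypes, 1101 and 1705 in wild-type polysomal RNA and 110 and 223 in knockout polysomal RNA. Libraries are shared between the comparisons. Without knockout total replicate 1 the count in total RNA was 32 higher and 14 lower, beside 60.6% of all genes, and without replicate 2 it was 20 and 4, beside 32.4%. In knockout polysomal over total RNA 0 of 73 were called without either total library, beside 0.0419% and 0.0587% of all genes, and the 6 genes called in the full fit kept their sign in both.

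Among iron uptake and release genes, wild-type polysomal RNA had 1 of 9 higher and 3 lower, and that of the knockout 0 of 10 higher and 2 lower (medians −0.39 and −0.28). Cp, the ferroxidase ceruloplasmin that oxidises iron on release, fell by 2.98 ± 0.18 in the wild type (limma adjusted p = 0.000808), from 27.2 ± 1.60 to 2.57 ± 0.172 normalised read counts (SD, n = 3 each), and its knockout value was −1.79 ± 0.27 (adjusted p = 0.0176). Lrp1, a receptor that clears haem bound to haemopexin, stood at −2.69 and −1.92, and Steap3, a ferrireductase of the transferrin cycle, at −1.36 in the wild type, all called. Steap1 was higher there, at 0.93. Between genotypes 2 of 9 were higher and 0 lower in each fraction (medians −0.10 in total and 0.51 in polysomal RNA). Slc40a1, the iron exporter ferroportin, whose mRNA carries an iron-responsive element near its start, rose by 0.95 ± 0.21 in total RNA (adjusted p = 0.011) and by 2.23 ± 0.43 in polysomal RNA (adjusted p = 0.0381). Its normalised read counts were 6.08, 4.53 and 6.18 in wild-type total, 6.76, 1.45 and 2.94 in wild-type polysomal, 11.9 and 9.75 in knockout total and 21.0, 12.1 and 22.1 in knockout polysomal RNA. Every knockout library lay above every wild-type one. The others were Steap1 in total RNA, at 0.80, and Cp in polysomal RNA, at 1.19 (limma adjusted p = 0.044). With the length trend removed 1 of 9 was higher in polysomal RNA between genotypes, and Cp was not called.

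Of the other mRNAs with a known iron-responsive element, 5 of 7 were tested. Between genotypes 1 of 5, Slc40a1, was higher and 0 were lower in each fraction. In knockout polysomal over total RNA 0 of 5 were called by limma, with Slc40a1 at 0.68, Cdc42bpa at 0.45, Cdc14a at 0.35 and Slc11a2 at 0.13. Slc11a2, the iron importer of endosomes, stood at 0.05 ± 0.16 in the wild type.

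Ferritin turnover genes had 2 of 4 lower in wild-type polysomal RNA, the ferritin autophagy receptor Ncoa4 at −1.46 and the ubiquitin ligase Herc2 at −2.48, and 0 of 4 called in the knockout by limma. Ncoa4 levels were low, at 4.03 ± 0.748 normalised read counts in wild-type total and 0.907 ± 0.668 in wild-type polysomal RNA (SD, n = 3 each). In total RNA between genotypes 2 of 4 were lower, the iron chaperones Pcbp1 at −0.73 ± 0.13 (limma adjusted p = 0.00613) and Pcbp2 at −0.57 ± 0.14 (adjusted p = 0.0168). Of the genes that control the iron regulatory proteins or decay of their targets, 7 were tested. Zfp36, an mRNA decay factor, was higher in polysomal RNA of both genotypes, at 1.76 and 1.92, and Skp1a at 0.77 in the wild type (limma adjusted p = 0.0496). With the length trend removed 1 of 7 was higher in polysomal RNA of the wild type. Between genotypes, in total RNA, Skp1a and Rbx1, ubiquitin ligase subunits, were higher, at 1.28 and 0.92, and Cul1, their scaffold, lower, at −0.72. Fbxl5, the iron-sensing subunit that marks Ireb2 protein for breakdown, stood between −0.24 and 0.41 in the 5 comparisons and passed in none.

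Mitochondrial iron and iron-sulphur cluster genes had 3 of 26 higher and 0 lower in polysomal RNA of the wild type (Glrx5 at 1.05, Fdx1 at 1.02 and Lyrm4 at 0.76) and 0 of 26 called in the knockout by limma, with medians of 0.33 and −0.16. With the length trend removed 0 of 26 were called in the wild type. In total RNA between genotypes 11 were higher and 1 lower (median 0.38), beside 36.8% of all genes called, led by the ferredoxin Fdx1 at 1.58, Lyrm4 at 1.40 and Fdx1l at 1.16. Knockout total replicates 1 and 2 stood apart in all 3: they had 37.7 and 70.6 normalised read counts for Fdx1, 19.8 and 36.7 for Lyrm4 and 36.8 and 74.7 for Fdx1l, all above the wild-type total libraries. Without replicate 2 the values were 1.14, 0.96 and 0.66, with 10 of 26 higher and 0 lower, and without replicate 1 they were 2.03, 1.83 and 1.66, with 18 higher and 2 lower. All 3 genes passed in both. Of 13 haem genes, 1 was higher and 2 were lower in polysomal RNA of the wild type, and 0 and 2 in that of the knockout. Alas1, the first enzyme of haem synthesis, was among the lower ones in both, at −1.04 and −1.59. Hmox1, which breaks haem down, was higher in the wild type at 1.11, and Fech, which inserts iron into haem, lower at −0.78, while Urod was lower in the knockout at −1.10. Between genotypes, in total RNA, 6 of 13 were higher and 1 lower, with Blvrb at 1.002 and Hmox1 at 0.92 ± 0.13 (limma adjusted p = 0.00212), and Bach1, a haem-sensing repressor of Hmox1 and ferritin genes, at −1.45 ± 0.27 (adjusted p = 0.00646).

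The antioxidant list was drawn up around Nfe2l2, a known activator that it shares with the ferritin genes. It also holds Nfe2l2 itself and Keap1, so it is not a list of targets alone. In polysomal RNA of the wild type 2 of 11 were higher and 1 lower, Hmox1, Srxn1 at 0.79 and G6pdx at −0.79, and 0 higher and 1 lower in the knockout. Between genotypes, in total RNA, 2 of 11 were higher and 0 lower, Nqo1 and Hmox1 (median 0.04). Nqo1, a quinone reductase, had 56.0, 59.3 and 46.2 normalised read counts in wild-type total and 53.7, 38.1 and 51.0 in wild-type polysomal RNA. In the knockout it had 273 and 343 in total and 81.2, 75.4 and 102 in polysomal RNA, so it was high in knockout total RNA above all. Nqo1 rose by 2.61 ± 0.17 between genotypes in total RNA (limma adjusted p = 6.76e-05) and fell by 1.83 ± 0.24 in knockout polysomal against total RNA (adjusted p = 0.0133). In the full fit, though not in every other setting, it was the 1 gene of the 7 lists with a called genotype difference in polysomal over total RNA. Its value there was −1.69 ± 0.28 (limma adjusted p = 0.0376). This call was lost with the length trend removed (−1.34, limma adjusted p = 0.0732). Without knockout total replicate 2, which leaves 1 knockout total library, the value was −1.52.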

How the data were processed

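Total and polysomal RNA libraries were read from the authors' complete table of each genotype. The deposited columns hold a signal, whole reads times 1 factor per library: 100% of values were whole within 0.001 reads of the smallest step, and columns summed to 847338 to 1215073, so they are not plain CPM. STAR, HTSeq, edgeR and mm10 are named in the submitters' processing notes, with no versions or roles. The deposited log2 fold change and FDR (an adjusted p-value) are the authors', per the file headers. Knockout columns match the titles by group only, so their replicate numbers are those of the columns.

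Here, limma 3.58.1 in R 4.3.3 (trend) was fitted to log2(value + 1), which understates changes of low genes, keeping genes that reached 1 in 3 or more of the fitted libraries, with Benjamini-Hochberg adjustment over all of them. Knockout against wild type, and the genotype difference, used the 12590 shared genes scaled by the median of ratios. edgeR 4.0.16 and DESeq2 1.42.0 on the recovered reads were alternatives. The limma fits of polysomal over total RNA were tested on simulated data. That simulation gave all genes the same spread and had no length trend or outlying library, so it does not cover these features. The iron lists were also counted with the length trend removed and without doubted libraries, a choice made after seeing the data. Members and lists were chosen with earlier results of these data known. From each list up to 3 genes past the threshold, by size, are named, and other genes singled out were chosen after their values were seen. The result of 1 listed gene is not reported here. Coordinates and promoters come from RefSeq on GRCm38.p6, where all 5 members matched; hairpin and protein sequences were not used here. Same-numbered wild-type libraries did not deviate together (correlations of 0.21, −0.22 and −0.07), so replicate numbers were not taken as pairs.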

Additional observations from a re-analysis of the deposited data

Results flagged for a closer look

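The ratio of Tfrc to Ireb2 per kilobase moved in opposite directions in the 2 genotypes: every wild-type polysomal library was above every wild-type total library, and every knockout polysomal library below both knockout total libraries, a difference of −1.46 on the log2 scale. It is listed for this opposite movement, and its exact permutation p of 0.005 (adjusted p = 0.02 over 4 ratios) belongs to a ratio chosen after the values were seen. A genotype difference within either fraction can also lower this p. Whether the opposite movement would hold in other cultures was not tested.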

How the results depend on the processing

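In wild-type polysomal over total RNA 0 to 1 members were called when 1 library was left out, and in total RNA between genotypes 1 to 3, against 1 and 2 in the full fits. The Aco1 calls were the ones lost, each time without a wild-type total library and at nearly the same estimate, and Fth1 stayed called in total RNA. With the length trend removed 1 member, Tfrc, was called in the knockout, beside 12.1% of all genes. In total RNA between genotypes 3 were called (Fth1, Tfrc and Aco1), beside 36% of all genes. Without the polysomal libraries above 10% rRNA-like reads Tfrc stood at −0.78 between genotypes in polysomal RNA. Its value for the genotype difference is given above. In both, the knockout polysomal group is then 1 library, assumed to vary like the others. With all libraries in 1 fit 0 were called in total RNA between genotypes. The replicate number as a block left 1 call in the wild type, Aco1 at −1.07 (adjusted p = 0.0255), and changed no other call there. No such block was fitted in the knockout, whose columns carry no sample numbers. In the other settings run the counts were as in the full fits. Over all genes, DESeq2 called 2154 higher and 2215 lower in the wild type, 537 and 751 in the knockout, 490 and 462 for the genotype difference and 559 and 396 in polysomal RNA, against 1101 and 1705, 110 and 223, 25 and 6, and 197 and 116 by limma. Removing the length trend gave 662 and 798 in the knockout, and all libraries in 1 fit gave 587 and 721 in total RNA against 2141 and 2272.

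Signs of values that were not called changed as follows. In the wild type Fth1 and Ftl1 stood at −0.36 and −0.081 with the length trend removed. Without rRNA-rich libraries Fth1, Ftl1 and Tfrc stood at −0.33, −0.34 and 0.21. Leaving out 1 library gave −0.33 to 0.52, −0.34 to 0.65 and −0.96 to 0.21 for them. In the knockout 1 library left out gave −0.44 to 0.008 for Ftl1 and −0.21 to 0.46 for Ireb2. For the genotype difference Ftl1 ran from −0.99 to 0.061, and stood at 0.30 without rRNA-rich libraries. In total RNA between genotypes Ftl1 stood at −0.04 on the deposited scaling and −0.18 with the length trend removed, and 1 library left out gave −0.084 to 0.17, and −0.53 to 0.08 for Ireb2. In polysomal RNA between genotypes Fth1 stood at −0.057 by edgeR and −0.074 by DESeq2, and Ftl1 at 0.39 without rRNA-rich libraries. There 1 library left out gave −0.20 to 0.71 for Fth1, −0.91 to 0.14 for Ftl1, −0.79 to 0.32 for Tfrc, −0.051 to 1.17 for Ireb2 and −0.44 to 0.025 for Aco1. The cause was not tested, except that settings with fewer libraries have less to estimate the spread from. Adding Fth-ps2 to Fth1, another pseudocount or no filter changed no call and no sign of the members.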
